A study of Drosophila melanogaster with 16 samples.

Results

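The larval serum and fat body protein genes examined here are Lsp1alpha, Lsp1beta, Lsp1gamma, Lsp2, Fbp1, Fbp2 and apolpp, 7 of the 17698 genes in the count tables. They were picked by FlyBase symbol, with earlier results of these data known, and all 7 had counts in each of the 16 libraries. RNA was sequenced from whole central nervous systems (CNSs) of wandering, late-third-instar Drosophila larvae raised at 25°C. Each replicate pooled 20 CNSs, and each of the 4 genotypes had 4 replicates.

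Every genotype carried the pan-neuronal driver nsybGal4, which switches on UAS transgenes in neurons. TFAM overexpression (o/e) was nsybGal4>UAS-TFAM3M, which raises the protein that packages mitochondrial DNA. TFAM o/e with ATF4 RNAi combined that transgene with UAS-ATF4 RNAi in the same neurons. ATF4 o/e was nsybGal4>UAS-ATF4-HA, and control was nsybGal4/+ with no UAS transgene, so that neither overexpression nor RNAi had a neutral UAS transgene as its counterpart. Nothing in the labels says that replicates came from separate cultures, and p values then measure the spread between these pools, which may be technical.

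In the larva the fat body, which does the work of liver and adipose tissue, secretes storage and transport proteins into the hemolymph. The larval serum proteins are hexamerins, large storage proteins of the hemocyanin superfamily that late larvae accumulate and later use as a source of amino acids during metamorphosis. Lsp1 hexamers are assembled from alpha, beta and gamma subunits, each with a gene of its own, whereas Lsp2 forms a separate hexamerin. Fbp1 encodes a fat body receptor through which Lsp1 is taken back up from the hemolymph late in larval life, and it is a classical target of the steroid hormone ecdysone. Fbp2 encodes a fat body protein related to alcohol dehydrogenase. The gene apolpp encodes the precursor of apolipophorin, the scaffold of the main lipid-carrying lipoprotein of the hemolymph, which also reaches the blood-brain barrier. The driver acts in neurons, whereas the members are known as genes of the fat body.

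The 7 genes are scattered over the genome. In dm6 coordinates, with Ensembl release 115 gene models, Lsp1alpha (FBgn0002562) lies on chromosome X from 12490291 to 12492982, and Lsp1beta (FBgn0002563) on 2L from 898500 to 901316. Lsp1gamma (FBgn0002564) lies on 3L from 66430 to 68995, and Lsp2 (FBgn0002565) on the same arm from 12129393 to 12131869. Fbp1 (FBgn0000639) is also on 3L, from 14094589 to 14098053, and is the only one on the minus strand. Fbp2 (FBgn0000640) lies on 2L from 9426784 to 9427917, and apolpp (FBgn0087002) on chromosome 4 from 1060969 to 1077273. Counts were taken over exons. The 3 Lsp1 genes are related copies, and how many reads could map to more than 1 of them was not tested.

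Lsp2 may have been measured from little of its length. Its single exon of 2477 bases shares 2096 bases with asRNA:CR11538 on the opposite strand, which leaves 381 bases, or 15.4%, of its own. In these tables genes with over 90% of their exon bases under a gene on the opposite strand had 0 counts in every library in 132 of 164 cases, against 726 of 10048 genes with no overlap. Whether reads in such overlaps were left uncounted, or these genes were little expressed, was not tested. Lsp2 had between 25 and 327 counts per library, and its level is uncertain for this reason. The other members kept at least 95.5% of their exon bases free of other genes.

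Library totals were between 18215062 and 24778270 counts. Levels are given as CPM, counts normalised to library size with TMM factors over the 16 libraries. TFAM, which checks the labels of 2 genotypes, had 391, 670, 557 and 526 CPM in TFAM o/e, and 404, 488, 609 and 650 CPM with ATF4 RNAi added, against 70.6, 84.7, 140 and 94.5 CPM in control. It was called in both comparisons with control (log2 fold change 2.46 in each, adjusted p = 0.00341 and 0.00184, edgeR). The ATF4 gene, crc, which overlaps CG46314 on the same strand, averaged 155 ± 5.56 CPM with ATF4 RNAi added and 202 ± 29.8 CPM in TFAM o/e alone (SD, n = 4 each). This difference was not past the threshold over all genes (log2 fold change -0.38, adjusted p = 0.339, edgeR). The libraries labelled ATF4 overexpression held 185 ± 4.33 CPM of crc, against 204 ± 17.4 CPM in control (SD, n = 4 each). Counted crc RNA was thus not raised in them (log2 fold change -0.15, adjusted p = 0.53, edgeR). How many crc reads went uncounted for the overlap with CG46314, those of the transgene included, was not tested. Whether ATF4 was overexpressed can therefore not be read from these counts. Libraries with this label are called the libraries labelled ATF4 o/e below. The treatment text in their labels differs from that of the other libraries, and it is not stated whether they were prepared together with control. In comparisons with them, genotype and any separate preparation cannot be told apart. Genes that mark the labelled tissue were abundant throughout. The 5 neuronal markers elav, nSyb, brp, Syt1 and para summed to between 1276 and 2789 CPM in a library. Control replicate 3 stood apart in how expression depended on gene length. Over 8606 genes, the slope of log2 CPM on log2 exon length was 0.211 in that library and between 0.456 and 0.811 in the other 15.

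Per base of whole exon length, apolpp was the most abundant member on average in every genotype and Lsp2 the least. In TFAM o/e apolpp averaged 56.0 ± 15.1 CPM per kb, and its lowest library, at 44.2, lay above the highest of Fbp1, at 13.9. Fbp1 averaged 10.4 ± 2.61, Fbp2 6.29 ± 2.85, Lsp1beta 5.14 ± 1.13, Lsp1gamma 4.08 ± 1.74 and Lsp1alpha 3.50 ± 1.88 CPM per kb in TFAM o/e (SD, n = 4 each). In control apolpp averaged 53.8 ± 19.8 CPM per kb, Fbp1 39.3 ± 31.8, Fbp2 32.2 ± 27.8, Lsp1beta 19.9 ± 6.42, Lsp1gamma 17.1 ± 6.92 and Lsp1alpha 14.6 ± 4.55 (SD, n = 4 each). Lsp2 aside, the ranges of each neighbouring pair in this order overlapped in both genotypes, except for apolpp and Fbp1 in TFAM o/e. Lsp2, taken over its whole exon, lay below Lsp1alpha without overlap in both genotypes. It had at most 1.25 CPM per kb in TFAM o/e and 7.83 in control, where Lsp1alpha had at least 1.94 and 8.97. Over its whole exon Lsp2 averaged 0.901 ± 0.266 CPM per kb in TFAM o/e and 4.15 ± 2.74 in control. Were all its counts from the 381 bases not shared with its antisense gene, it would have averaged 5.86 ± 1.73 CPM per kb in TFAM o/e and 27.0 ± 17.8 in control, between Fbp2 and Lsp1beta in each. The order by mean was thus the same in both genotypes, with a wider gap below apolpp in TFAM o/e.

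Lsp1beta RNA was lower in CNSs with pan-neuronal TFAM o/e than in control, and 5 further members had lower means without passing the threshold. Each pair of genotypes was tested by edgeR (quasi-likelihood) on its 8 libraries. A gene was called when its Benjamini-Hochberg adjusted p over all genes tested was under 0.05 and its fold change at least 1.2. Only Lsp1beta, of the 7 members, was called between TFAM o/e and control, where 0.0321% of the 9355 genes tested were called lower. Of the 7, 6 were lower at an unadjusted p under 0.05, against 2.49% of all genes tested, and apolpp was not. The median log2 fold change was -2.07 over the 7 members and -0.01 over all genes tested.

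The Lsp1 subunits were separated between the genotypes. Lsp1beta had 14.1, 16.8, 9.79 and 15.8 CPM in the TFAM o/e replicates, against 76.2, 59.6, 49.3 and 34.2 CPM in the control replicates. Every TFAM o/e library lay below every control library, and the means differed 3.88-fold (log2 fold change -1.96, standard error 0.27, adjusted p = 0.0222, edgeR). Lsp1alpha had 5.10, 15.7, 5.57 and 10.4 CPM in TFAM o/e, against 40.2, 37.3, 52.6 and 23.5 CPM in control. Its groups did not overlap either, but its spread in TFAM o/e was wider and its adjusted p was 0.105 (edgeR, log2 fold change -2.08, standard error 0.39). Lsp1gamma had 7.69, 16.2, 6.33 and 10.7 CPM in TFAM o/e, against 40.1, 62.4, 47.4 and 20.7 CPM in control. Replicate 2 was the highest TFAM o/e library and replicate 4 the lowest control library, still without overlap (log2 fold change -2.07, standard error 0.39, adjusted p = 0.101, edgeR).

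Lsp2, the other hexamerin, had 2.38, 3.10, 1.71 and 1.73 CPM in TFAM o/e, against 11.2, 6.51, 19.4 and 3.98 CPM in control. The groups did not overlap, with control spread 4.87-fold between its lowest and highest library (log2 fold change -2.21, standard error 0.48, adjusted p = 0.179, edgeR). With the 3 Lsp1 genes, Lsp2 made 4 members whose TFAM o/e libraries all lay below all control libraries, as did 1.71% of the genes tested. In bulk CNS RNA, fewer cells of a type and less RNA per cell cannot be told apart. Neither can be told apart from a different amount of attached non-CNS tissue in the pools. This holds for each difference given here.

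The Lsp1 receptor gene Fbp1 had 36.7, 48.3, 31.2 and 27.6 CPM in TFAM o/e, against 183, 58.7, 269 and 33.6 CPM in control. Control replicates 1 and 3 were high, whereas control replicate 4 lay among the TFAM o/e libraries (log2 fold change -1.93, standard error 0.59, adjusted p = 0.568, edgeR). Fbp2 had 4.55, 11.3, 5.69 and 5.49 CPM in TFAM o/e, against 40.9, 7.92, 74.1 and 15.6 CPM in control. Replicates 1 and 3 were again the high control libraries, and replicate 2 the high TFAM o/e library (log2 fold change -2.37, standard error 0.65, adjusted p = 0.415, edgeR). Without control replicate 3 the log2 fold change was -1.35 for Fbp1 and -1.67 for Fbp2, with adjusted p of 0.765 and 0.563 (edgeR). It was -1.88 for Lsp1alpha, -2.0 for Lsp1beta, -2.01 for Lsp1gamma and -1.70 for Lsp2, and Lsp1beta was still the only member called (adjusted p = 0.0293, edgeR).

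The lipoprotein gene apolpp was at about the same mean level in both genotypes, with 906, 539, 520 and 672 CPM in TFAM o/e against 861, 693, 307 and 671 CPM in control. The groups overlapped over most of their range (log2 fold change 0.06, standard error 0.31, adjusted p = 0.957, edgeR). Control replicate 3, the highest control library for Lsp1alpha, Lsp2, Fbp1 and Fbp2, was the lowest of the 16 libraries for apolpp. Without it the log2 fold change of apolpp was -0.16 (standard error 0.21, adjusted p = 1, edgeR).

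**Figure D1:**
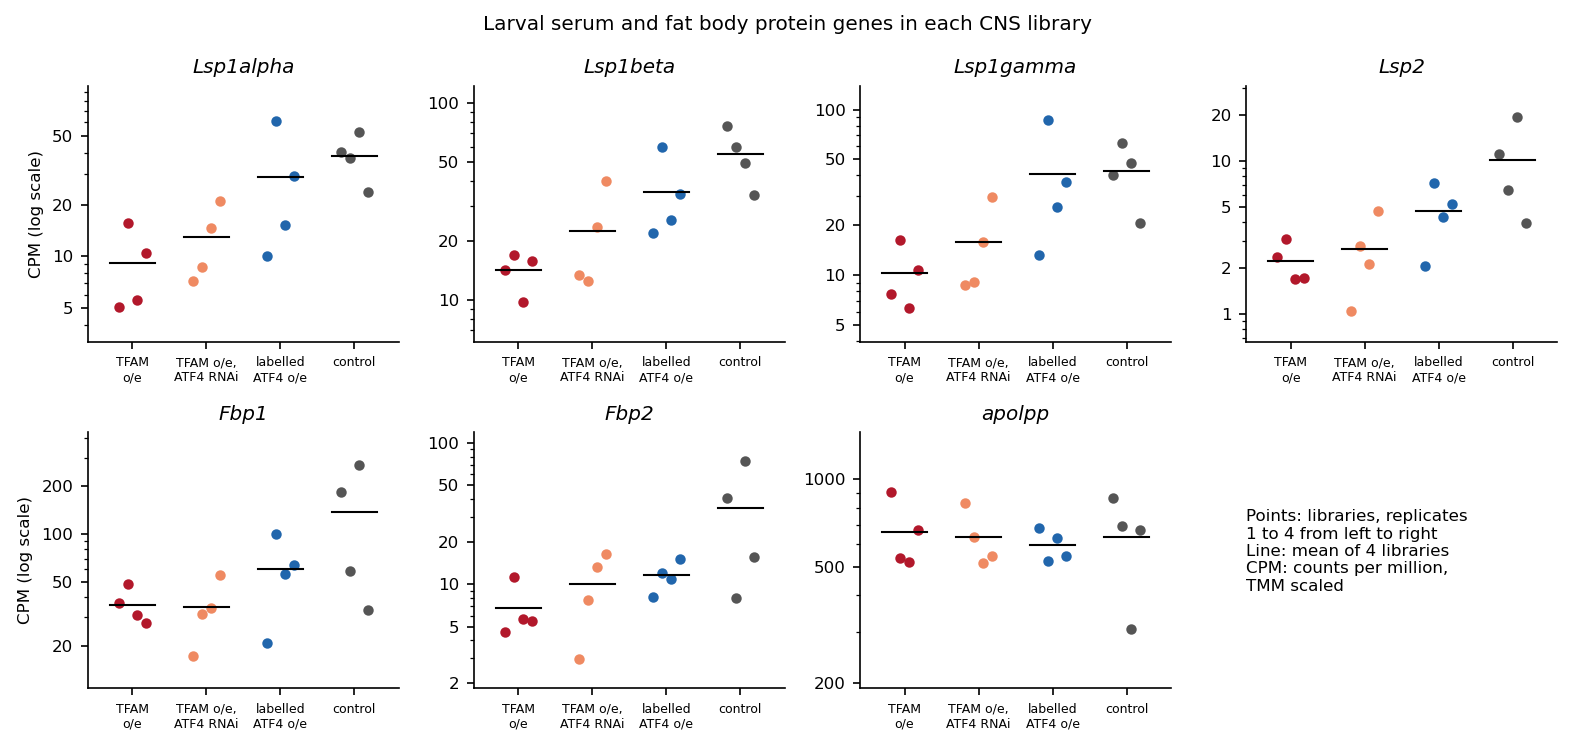
CPM of the 7 genes on log axes, one panel a gene, for TFAM o/e, TFAM o/e with ATF4 RNAi, the libraries labelled ATF4 o/e and control. Points are libraries in replicate order and lines are means of 4. The TFAM o/e points of Lsp1alpha, Lsp1beta, Lsp1gamma and Lsp2 lie below all control points, while those of apolpp, between 520 and 906 CPM, lie among them.

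How many members passed the threshold depended on the test. DESeq2, the tool of the study's own methods, called 6 members lower without a prior on fold changes and 5 with one, against 0.456% and 0.452% of all genes. The member left out was apolpp without the prior, and apolpp and Fbp1 with it. When each library's slope on exon length entered the edgeR fit as a covariate, the 3 Lsp1 genes were called, against 0.321% of genes called lower. The call of Lsp1beta was lost without control replicate 2 (adjusted p = 0.087) and without TFAM o/e replicates 1, 2, 3 or 4 (adjusted p = 0.0991, 0.0557, 0.0701 and 0.0718, edgeR). With replicate number as a block Lsp1beta was not called either (log2 fold change -1.93, adjusted p = 0.121, edgeR). Its log2 fold change stayed between -2.12 and -1.76 over the 8 fits that left out 1 library.

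**Figure D2:**
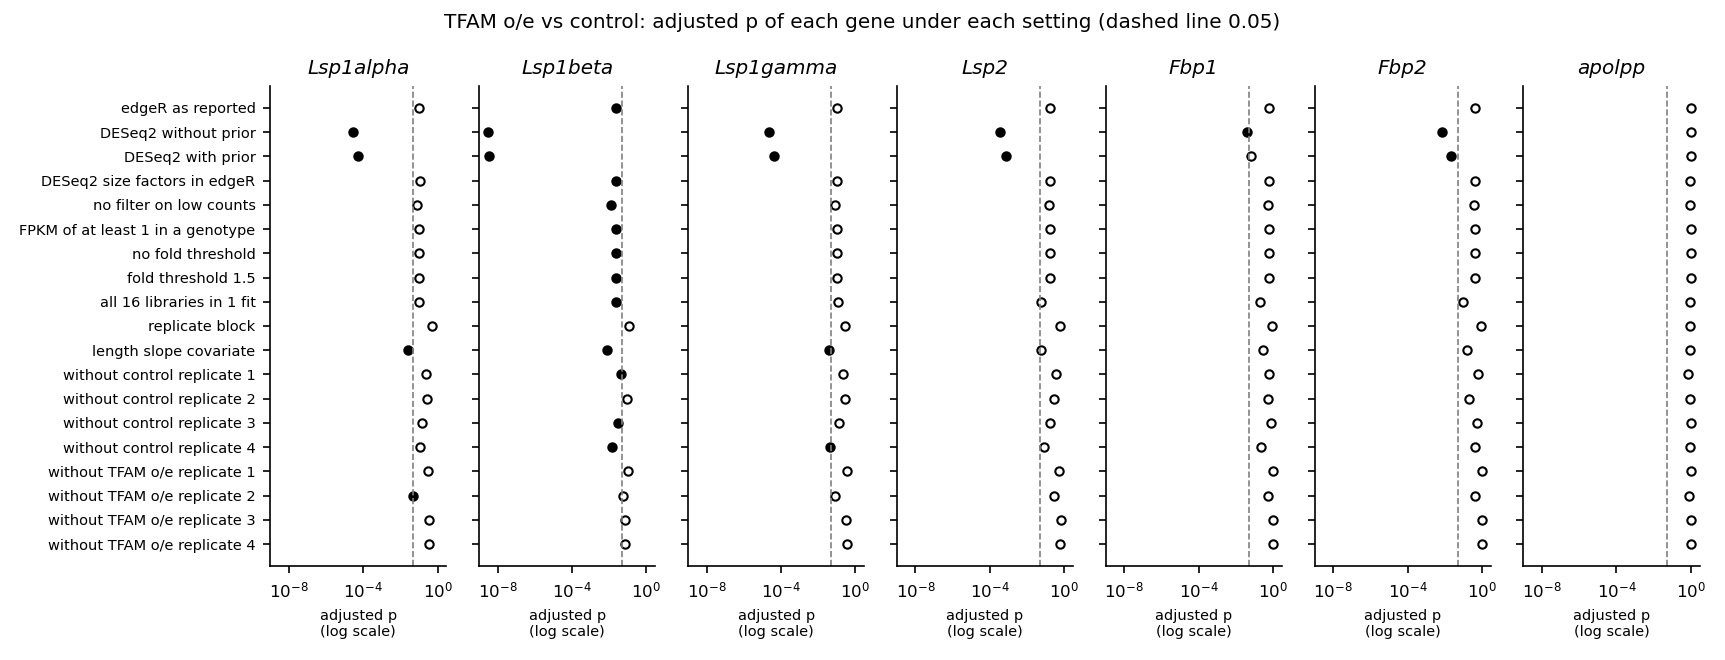
Benjamini-Hochberg adjusted p on log axes for each of the 7 genes, TFAM o/e against control, under each setting named at the left. Filled points are under 0.05, which is the dashed line. Lsp1beta is at 0.0222 in the edgeR fit reported and at 3.04e-09 with DESeq2 without its prior, whereas apolpp is at 0.692 or above under every setting shown.

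No difference in the members was detected when ATF4 RNAi was added to TFAM o/e. Between TFAM o/e with ATF4 RNAi and TFAM o/e alone, 0 of the 7 were called by edgeR, and 0 by DESeq2 with or without its prior. At an unadjusted p under 0.05 edgeR also gave 0 of 7. Of all 9436 genes tested, 0.551% were called in either direction and 5.81% had an unadjusted p under 0.05. For all 7 members the libraries of the genotypes overlapped, whereas 4.09% of all genes tested did not overlap. The median log2 fold change of the members was 0.50.

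The Lsp1 subunits had somewhat higher means with ATF4 RNAi added, mostly through replicate 4. Lsp1beta had 13.4, 12.4, 23.3 and 40.0 CPM with ATF4 RNAi added, against 14.1, 16.8, 9.79 and 15.8 CPM in TFAM o/e alone. Replicates 3 and 4 lay above all TFAM o/e libraries and replicates 1 and 2 among them (log2 fold change 0.66, standard error 0.35, adjusted p = 0.989, edgeR). Lsp1alpha had 7.18, 8.70, 14.7 and 21.1 CPM with ATF4 RNAi added, and Lsp1gamma 8.76, 9.11, 15.9 and 29.5 CPM. Their log2 fold changes were 0.50 and 0.63 (standard errors 0.42 and 0.42). Over the 8 fits that left out 1 library these were between 0.16 and 0.89 for Lsp1alpha and between 0.14 and 0.95 for Lsp1gamma. The slope on exon length fell over replicates 1 to 4 of this genotype, at 0.75, 0.65, 0.57 and 0.50. Whether this is related to the levels of the members was not tested.

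The remaining members showed no common direction in this comparison. Lsp2 had 1.06, 2.78, 2.15 and 4.77 CPM with ATF4 RNAi added, and a log2 fold change of 0.27 (standard error 0.41). Fbp1 had 17.3, 31.5, 34.3 and 55.6 CPM, at a mean of 34.7 ± 15.8 CPM against 35.9 ± 9.04 CPM in TFAM o/e alone (SD, n = 4 each, log2 fold change -0.05, standard error 0.31). Fbp2 had 2.93, 7.79, 13.3 and 16.3 CPM (log2 fold change 0.58, standard error 0.47), and apolpp 833, 634, 516 and 546 CPM (log2 fold change -0.06, standard error 0.21). All 4 had an adjusted p of at least 0.989 (edgeR). Replicate 1 was the lowest and replicate 4 the highest library of this genotype for Lsp2, Fbp1 and Fbp2, while replicate 1 was the highest for apolpp.

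Set against control, TFAM o/e with ATF4 RNAi also had lower means of the 6 members other than apolpp. No member was called by edgeR, where 0.17% of the 9421 genes tested were called lower. An unadjusted p under 0.05 was reached by 6 of 7, all lower, against 2.81% of genes. Lsp1alpha was the only member without overlap, at 7.18 to 21.1 CPM against 23.5 to 52.6 CPM in control, as were 1.83% of genes (log2 fold change -1.58, standard error 0.37, adjusted p = 0.21, edgeR). The median log2 fold change was -1.58 over the members and -0.02 over all genes.

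Lsp1beta differed from control by a log2 fold change of -1.31 (standard error 0.40) and Lsp1gamma by -1.44 (standard error 0.45), with replicate 4 of the TFAM o/e, ATF4 RNAi genotype among the control libraries in both. For Lsp2 it was -1.94 (standard error 0.56), for Fbp1 -1.98 (standard error 0.64) and for Fbp2 -1.79 (standard error 0.72), and for apolpp -0.02 (standard error 0.30). DESeq2 without its prior called Lsp1alpha and Lsp2, against 0.486% of genes called lower, and with its prior Lsp1alpha alone, against 0.454%. With the slope on exon length as a covariate Lsp1alpha was called as well (adjusted p = 0.0379, edgeR), against 0.987% of genes. All comparisons with control use the same 4 control libraries. Without control replicate 3 the values were -1.40 for Fbp1, -1.10 for Fbp2 and -1.43 for Lsp2, and no member was called.

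In the libraries labelled ATF4 o/e the means of all 7 members were below those of control, but the groups overlapped for each member. No member was called, where 0.383% of the 9410 genes tested were called lower. Fbp2 was the only member with an unadjusted p under 0.05, against 5.98% of genes lower at that level. Of all genes tested, 3.6% were lower without overlap. DESeq2 called 0 members with or without its prior. The median log2 fold change of the members was -0.64, against -0.02 over all genes.

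Replicate 2 of the libraries labelled ATF4 o/e had more Lsp1alpha and Lsp1gamma than any of the other 15 libraries. Lsp1gamma had 13.2, 86.7, 25.9 and 36.4 CPM there, against 40.1, 62.4, 47.4 and 20.7 CPM in control (log2 fold change -0.08, standard error 0.53, adjusted p = 0.939, edgeR). Without control replicate 2, or without replicates 1 or 3 of the libraries labelled ATF4 o/e, its log2 fold change was positive, at 0.16, 0.21 and 0.08. Lsp1alpha had 10, 61.0, 15.3 and 29.3 CPM in the libraries labelled ATF4 o/e, and Lsp1beta 21.9, 59.9, 25.3 and 34.4 CPM. Their log2 fold changes against control were -0.42 and -0.64 (standard errors 0.51 and 0.34). Replicate 1 was the lowest of the 4 for all 3 subunits, and 2 libraries of Lsp1alpha and of Lsp1beta lay below every control library.

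Lsp2 had 2.07, 7.26, 4.30 and 5.29 CPM in the libraries labelled ATF4 o/e, and Fbp1 20.8, 99.7, 55.8 and 63.4 CPM. Replicate 2 was high and replicate 1 low for both (log2 fold changes -1.12 and -1.19, standard errors 0.51 and 0.66, adjusted p = 0.53 for each, edgeR). Fbp2 had 8.12, 12.0, 10.8 and 15.2 CPM, a narrow range that lay within that of control, 7.92 to 74.1 CPM (log2 fold change -1.59, standard error 0.60, adjusted p = 0.471, edgeR). Without control replicate 3 the log2 fold change of Fbp2 was -0.90, that of Fbp1 -0.61 and that of Lsp2 -0.61. For apolpp the 4 libraries, at 680, 523, 629 and 547 CPM, lay within the control range (log2 fold change -0.10, standard error 0.28, adjusted p = 0.848, edgeR). With the slope on exon length as a covariate, apolpp was called lower (log2 fold change -0.41, adjusted p = 0.0116, edgeR), against 0.914% of genes, and no other member was.

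**Figure D3:**
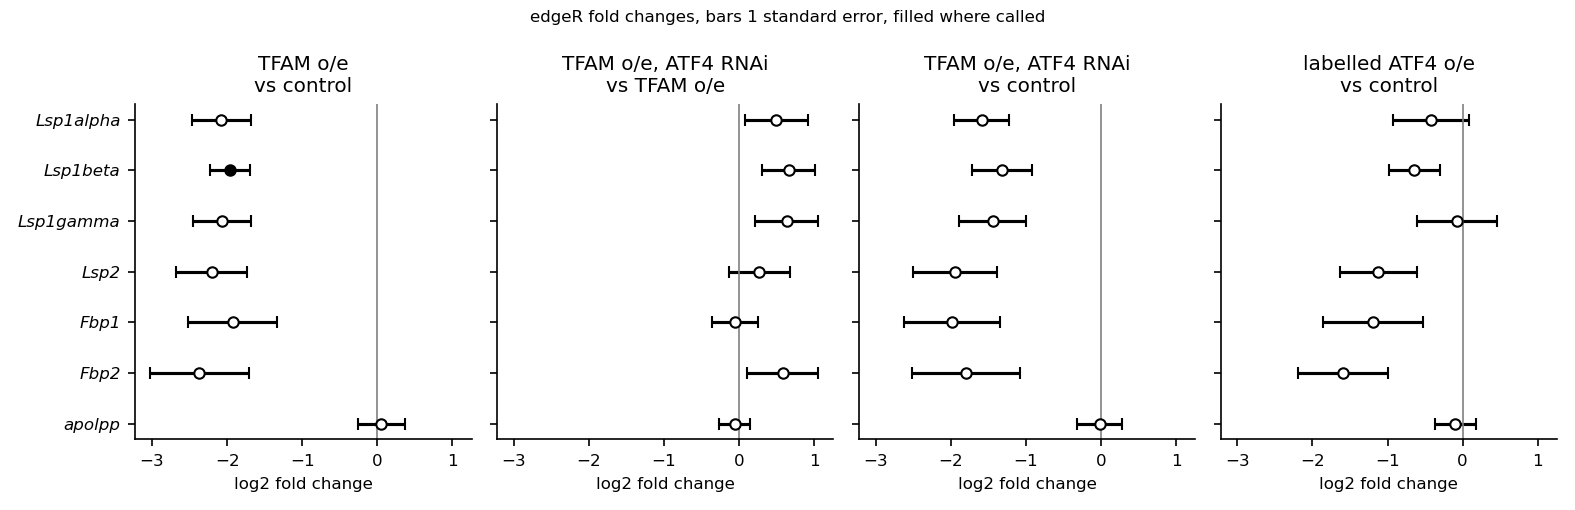
Log2 fold changes of the 7 genes in each of the 4 comparisons, from edgeR, with bars of 1 standard error and filled points where a gene was called. Lsp1beta in TFAM o/e against control, at -1.96, is the only filled point. The 6 members other than apolpp lie between -2.37 and -1.93 in that panel, and all bars of apolpp span 0.

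The proportions of the 3 Lsp1 subunit RNAs varied less than their sum did. Summed per kb of exon, they had 12.7 ± 4.56 CPM per kb in TFAM o/e, 19.4 ± 10.9 with ATF4 RNAi added, 40.1 ± 27.8 in the libraries labelled ATF4 o/e and 51.6 ± 14.7 in control (SD, n = 4 each). Over the 16 libraries this sum was between 8.22 and 79.7 CPM per kb. The beta subunit made up 42.0 ± 7.25% of it in TFAM o/e, 41.8 ± 1.86% with ATF4 RNAi added, 35.8 ± 8.14% in the libraries labelled ATF4 o/e and 39.0 ± 6.80% in control. Alpha was between 19.1% and 35.2% of the sum in any library and gamma between 27.2% and 43.5%. The ratio of alpha to gamma stayed between 0.563 and 1.08, while alpha itself spanned 12.0-fold and gamma 13.7-fold. No difference in these shares between genotypes was tested.

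**Figure D4:**
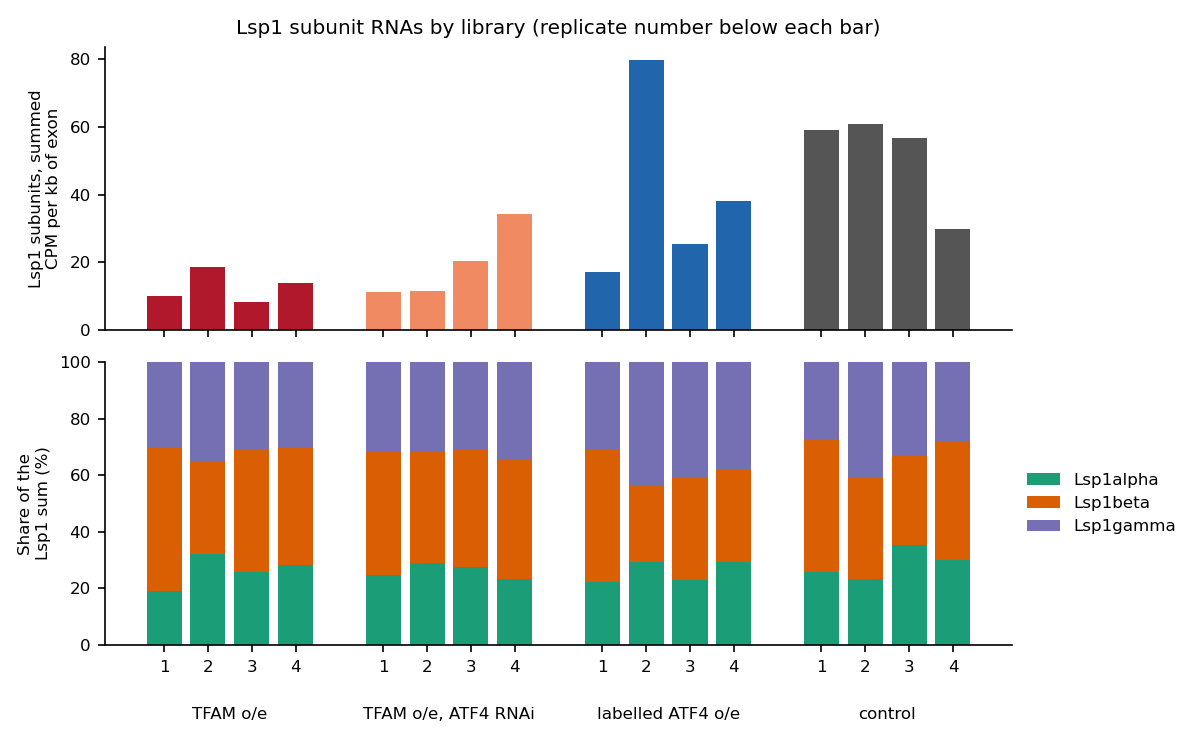
Upper bars give the summed level of the 3 Lsp1 subunit RNAs in each library, in CPM per kb of exon, and lower bars the share of each subunit in that sum, in percent. Sums are lowest in TFAM o/e, at 8.22 to 18.5 CPM per kb, against 29.7 to 60.8 in control. Beta takes 27.3% of the sum in replicate 2 labelled ATF4 o/e and 50.6% in TFAM o/e replicate 1, the ends of its range.

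The members other than apolpp varied together from library to library, also within a genotype. Over the 16 libraries, which share the scaling to total counts, Pearson's r of log2(CPM + 0.5) was 0.97 between Lsp1alpha and Lsp1gamma and 0.96 between Lsp2 and Fbp1. With each genotype's mean removed these were 0.94 and 0.97. The lowest value among the 6 was 0.64, between Lsp1gamma and Fbp2, and 0.39 with genotype means removed. Fbp2 and Fbp1 were at 0.87. For apolpp, r with the other 6 was between -0.57 and -0.19. These are descriptions over libraries of 4 genotypes, without a test. The libraries also differed in their slope on exon length within a genotype, and its part in these values was not tested. The level of Fbp1 relative to the Lsp1 sum, both per kb, was between 0.278 in control replicate 2 and 1.36 in control replicate 3, so the receptor gene and the serum protein genes did not keep a fixed ratio.

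Genes with a pattern like the members' were also sought. Among 8676 other genes with a mean of at least 1 CPM, likeness was Pearson's r with the mean standardised profile of the 7 members over the 16 libraries. This profile mostly followed the 6 members other than apolpp, whose own r with it was between 0.82 and 0.96, whereas apolpp was at -0.28. Each member was itself part of the profile, which raises its own r. The 8 genes at the top were fon (r = 0.90), Obp99b (0.88), CG2233 (0.85), Mal-B2 (0.83), CG34166 (0.81), CG9886 (0.78), CG17739 (0.77) and mr (0.75). With genotype means removed, 4 of the 8 were still among the 50 most alike. The gene fon encodes a hemolymph clotting protein and averaged 0.754 ± 0.347 CPM in TFAM o/e and 3.35 ± 1.96 CPM in control (SD, n = 4 each). Obp99b, of the odorant-binding protein family, averaged 8.68 ± 3.78 CPM in TFAM o/e and 53.4 ± 50.1 CPM in control (SD, n = 4 each).

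Genes for handling lipoproteins and genes of the ecdysone response gave no calls. Of 8 genes for the assembly, transfer and uptake of lipoproteins (Mtp, Apoltp, LpR1, LpR2, LRP1, mgl, NLaz and GLaz), 0 were called in any of the 4 comparisons, and 0 had an unadjusted p under 0.05. LpR1 and LpR2, which encode lipophorin receptors, averaged 73.9 and 68.3 CPM in TFAM o/e, and 67.2 and 63.1 CPM in control. Of 10 ecdysone-response and fat body transcription factors 0 were called, and 0 had an unadjusted p under 0.05 in the 3 comparisons with control. Their median log2 fold change between TFAM o/e and control was 0.19, with 8 of 10 higher. The early ecdysone-response gene br averaged 1125 CPM in TFAM o/e and 982 CPM in control. Summed, the 10 genes had 1733 to 2805 CPM in TFAM o/e, and 2739, 2557, 1192 and 1858 CPM in control replicates 1 to 4. The low control library, replicate 3, was also the one with the lowest slope on exon length. Between TFAM o/e with ATF4 RNAi and TFAM o/e alone the median was -0.14, with 9 of 10 lower. Of these, Hr39 and Eip78C had an unadjusted p under 0.05, against 5.81% of all genes (log2 fold changes -0.33 and -0.58, adjusted p = 0.815 and 0.856, edgeR). The 3 prophenoloxidase genes PPO1, PPO2 and PPO3, relatives of the hexamerins, were not called in any comparison, and PPO2 averaged 9.34 CPM in TFAM o/e and 12.6 CPM in control.

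Other fat body genes gave a mixed picture. Of 10 listed, 7 passed the filter on low counts, and 0 were called in any comparison. Between TFAM o/e and control 5 were lower and 2 higher, with a median log2 fold change of -0.17. Between TFAM o/e with ATF4 RNAi and control 7 were lower and 0 higher (median -0.16). In the libraries labelled ATF4 o/e against control 4 were lower and 3 higher (median -0.05). Obp99b was the only one with an unadjusted p under 0.05 between TFAM o/e and control (log2 fold change -2.63, standard error 0.64, adjusted p = 0.281, edgeR), against 2.49% of all genes lower at that level. The lipid droplet gene plin1 averaged 9.51 CPM in TFAM o/e and 10.7 CPM in control. The fatty acid synthase gene FASN1, which other tissues also express, averaged 465 CPM in TFAM o/e and 474 CPM in control. The fat body GATA factor gene srp averaged 0.852 CPM in TFAM o/e, with 1.74 CPM in its highest library, and 0.656 CPM in control. Lower means in TFAM o/e were those of tobi, at 0.354 CPM against 0.687 CPM in control, and regucalcin, at 43.5 against 52.5 CPM. Their log2 fold changes were -0.93 and -0.28 (adjusted p = 0.88 for each, edgeR). Adh and Pepck1 were at or near 0 counts in every library, but 2116 of the 2254 exon bases of Adh and all 2486 of Pepck1 are shared with a neighbouring gene, so that these zeros cannot be read as absence. Gnmt shares few bases and averaged 0.078 CPM in TFAM o/e and 0.238 CPM in control.

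Genes of other larval tissues varied between libraries too. The larval cuticle genes, made by the epidermis, summed to 15.5 to 28.6 CPM in TFAM o/e and 64.8 to 234 CPM in control, without overlap. Of the 4 tested, Lcp1, Lcp2, Lcp3 and Lcp4, 0 were called, against 0.0321% of all genes called lower. All 4 were lower at an unadjusted p under 0.05, against 2.49% of all genes (median log2 fold change -2.56). Acp65Aa, by its name an adult cuticle protein gene, was also on this list and was at or near 0. The cuticle sum was highest in control replicate 4, at 234 CPM. There the 6 members without apolpp summed to 132 CPM, the lowest value in control. Among the libraries labelled ATF4 o/e, replicate 2 was highest for both sums, at 79.4 and 327 CPM. The part of other tissues in the level of the members was not tested.

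The ring gland genes, for steroid hormone synthesis and adipokinetic hormone, summed to 3.4 to 38.9 CPM in TFAM o/e and 5.35 to 93.5 CPM in control, with control replicate 3 highest. Control replicates 1 to 4 had ring gland sums of 73.2, 25.7, 93.5 and 5.35 CPM. The 6 members without apolpp summed to 391, 232, 512 and 132 CPM there, in the same order. In TFAM o/e the orders differed, with replicate 2 lowest for the ring gland genes and highest for the 6 members. Any relation was not tested. The glue protein genes of the salivary gland had sums of 0.591 to 198 CPM in TFAM o/e, 2.21 to 186 CPM with ATF4 RNAi added and 1.13 to 37.2 CPM in control, without a call. The 7 muscle genes summed to 24.8 to 65.6 CPM in TFAM o/e and 30.2 to 191 CPM in control, and the 6 hemocyte genes to 46.7 to 73.8 CPM in TFAM o/e and 35.6 to 70.1 CPM in control. The 5 glial markers summed to 887 to 1266 CPM in TFAM o/e and 1115 to 1880 CPM in control, with Gs2 at a log2 fold change of -0.80 (adjusted p = 0.685, edgeR). No gene of these 5 lists was called in any of the 4 comparisons. The glial genes Gs2 and wrapper were the only ones with an unadjusted p under 0.05 between TFAM o/e and control (edgeR), against 2.49% of all genes lower at that level. The 6 members without apolpp summed to 60.3 to 111 CPM in TFAM o/e, 50.6 to 167 CPM with ATF4 RNAi added, 76.1 to 327 CPM in the libraries labelled ATF4 o/e and 132 to 512 CPM in control.

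**Figure D5:**
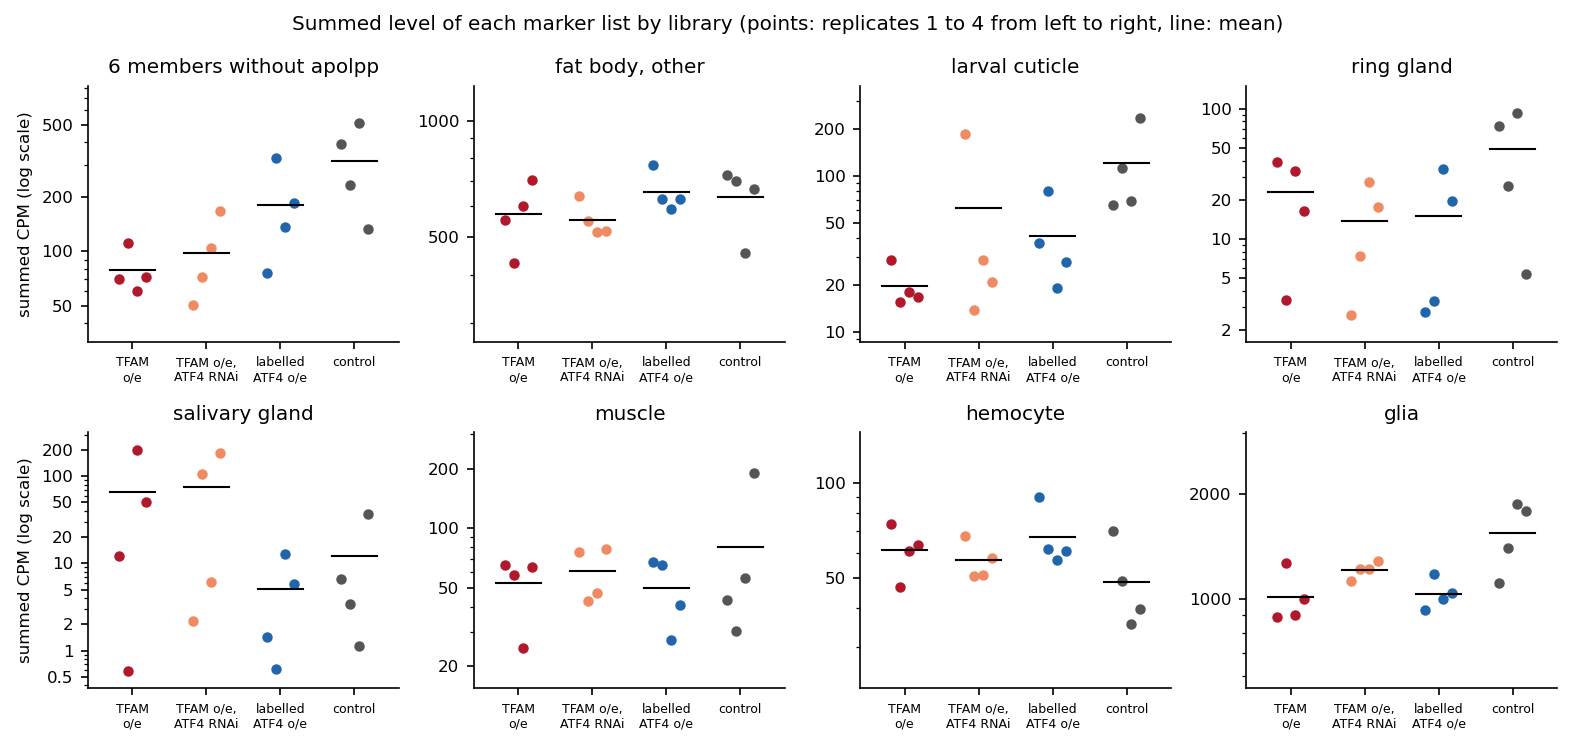
Summed CPM of the 6 members without apolpp and of 7 marker lists on log axes, with a point for each library in replicate order and a line for the mean of 4. The sum of the 6 members and that of the larval cuticle genes are lower in all TFAM o/e libraries than in all control libraries. Salivary gland sums run between 0.591 and 198 CPM, both in TFAM o/e.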

How the data were processed

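PolyA libraries (stranded kit) were read as single ends, which the authors aligned to dm6 by Bowtie2 2.3.4.2 and assigned to genes by featureCounts 1.6.3, at default settings. The deposited values are raw counts, not normalized. The annotation used is not given in the sources used here. Symbols and exon lengths came from Ensembl release 115, in which 17560 of 17698 identifiers had a symbol.

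The tool for each pair of genotypes was edgeR 4.0.16 under R 4.3.3 (TMM, filterByExpr, quasi-likelihood test, Benjamini-Hochberg adjustment over all genes tested), with calls at adjusted p under 0.05 and at least 1.2-fold change. The edgeR and DESeq2 fits of TFAM o/e against control were tested on simulated counts with known fold changes. The simulation gave all genes the same fixed dispersion, below the spread of the members. It thus does not show how the fits do for genes as variable as these. Alternatives included DESeq2 1.42.0 (prior or none), its size factors, other filters and fold thresholds, 1 fit of all libraries, a replicate block, the slope on exon length, and leaving out each library. Replicates differed by more than sampling noise (chi-square per degree of freedom 8.64 to 368). The members and the other gene lists were chosen with earlier results of these data known, so that no p is adjusted over a list alone. Genes named are the members, examples from the lists and the 8 most alike. Of the 79 genes in the lists, members included, 77 had an identifier in the files. Promoter and protein sequences were not analysed here.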

Additional observations from a re-analysis of the deposited data

Results flagged for a closer look

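Fbp2 in TFAM o/e replicate 2, at 11.3 CPM, stood apart from the other 3 TFAM o/e libraries, which were at 4.55, 5.69 and 5.49 CPM. Its gap to the nearest library was 0.83 of the range of the group, just past Dixon's critical value for 4 samples. It was 1 of 28 groups of 4 libraries examined, and chance flags about 1 in 20. The same library was the highest of its genotype for Lsp1alpha, Lsp1beta, Lsp1gamma, Lsp2 and Fbp1 as well, and had the lowest slope on exon length in TFAM o/e, at 0.456. Whether these are related was not tested.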

How the results depend on the processing

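Of 504 alternative values for the members, 458 kept their direction and side of the threshold, 18 crossed it upwards, 6 lost it and 22 changed sign, 14 of these for apolpp. Between TFAM o/e and control the count of members called was 1, but 6 with DESeq2 without a prior, 5 with its prior, 3 with the slope on exon length, 0 with the replicate block (Lsp1beta, log2 fold change -1.93, adjusted p = 0.121, edgeR) and 0 to 2 with 1 library left out. It was 0 without control replicate 2 or TFAM o/e replicates 1, 3 or 4, and 2 without control replicate 4. Between TFAM o/e with ATF4 RNAi and control it was 0, but 2, 1 and 1 with DESeq2 without and with its prior and with the slope. Between the libraries labelled ATF4 o/e and control it was 0, and 1 with the slope. The labels do not say that replicate numbers mark a shared batch. Deviations of libraries with the same number correlated above 0.1 in 2, 1, 3 and 1 of 4 numbers. This count does not settle whether the numbers pair the libraries. The block changed no other call.

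Log2 fold changes that changed sign were small. In TFAM o/e against control, apolpp (0.06) was at -0.10 with the slope and between -0.16 and 0.25 without 1 library. In TFAM o/e with ATF4 RNAi against control, apolpp (-0.02) was at 0.0092 without the filter on low counts, 0.053 with the replicate block and between -0.23 and 0.18 without 1 library. In the libraries labelled ATF4 o/e against control, apolpp (-0.10) was between -0.32 and 0.092 without 1 library, and Lsp1gamma (-0.08) at 0.019 with the slope and between -0.77 and 0.21 without 1 library. Between TFAM o/e with ATF4 RNAi and TFAM o/e, apolpp (-0.06) was at 0.032 with the slope and between -0.22 and 0.13 without 1 library. There Lsp2 (0.27) was at -0.037 with the slope and between -0.16 and 0.54 without 1 library, and Fbp1 (-0.05) between -0.38 and 0.17. The causes were not tested. At 25 to 327 counts per library, depth limits Lsp2 most.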

Other observations

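Between TFAM o/e with ATF4 RNAi and TFAM o/e alone, the larval cuticle genes had a median log2 fold change of 1.62 over 4 genes tested, with 2 at an unadjusted p under 0.05 and 0 called (edgeR), against 5.81% and 0.551% of all genes tested. Replicate 1 of TFAM o/e with ATF4 RNAi held most of it, with a cuticle sum of 185 CPM against 13.8, 28.7 and 20.8 CPM in the other 3 libraries. In that library the 6 members without apolpp summed to 50.6 CPM, the lowest of all 16 libraries. Replicate 4, where the 6 members summed to 167 CPM, the highest of this genotype, had the cuticle sum of 20.8 CPM. In the libraries labelled ATF4 o/e both sums were highest in replicate 2, at 79.4 CPM (cuticle) and 327 CPM (members). Any relation between the sums was not tested.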
